A study of Picea abies with 48 samples.

Results

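Gene expression in the scion of grafted Norway spruce (Picea abies) was compared with that of intact seedlings 1 day after grafting (DAG). A graft joins the shoot of one plant, the scion, to the root system of another, the rootstock, and the cut faces adhere, form callus and later reconnect their phloem and xylem. The comparison used 6 of the 48 libraries of the series, namely the 3 scion and the 3 intact libraries labelled day 1, and 38436 of 70736 gene models had enough reads to be tested. Scion libraries held tissue taken about 1 mm above the junction of hypocotyls that had been cut and joined with a silicon collar. Intact libraries held a hypocotyl piece of about 2 mm from plants that were never cut. All plants were wild-type seedlings of the seed source labelled FP-96. Skogsgård with no chemical treatment, and each library pooled 5 plants. Only grafted tissue was cut, so wounding, the loss of the root below and contact with a rootstock came together in the scion and cannot be told apart here. The rootstock libraries of day 1 and the scion and intact libraries of day 3 served as points of comparison.

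A cut stem loses tissue continuity at once. Ethylene and jasmonate are wound hormones, and transcription factors of the ERF, WRKY and LOB families act on wounding, defence and callus formation in flowering plants. Conifers defend wounded stems with terpenes, phenolic compounds and chitin-degrading enzymes. Adhesion and regrowth at a cut need enzymes that loosen or remodel pectin, cellulose and hemicellulose, and auxin that moves down from the shoot collects above a cut.

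The scion libraries held 20897762 to 21768514 counted reads and the intact libraries 18418469 to 26780688. No library stood apart, with correlations between replicates of 0.987 to 0.991 on the variance-stabilized scale of DESeq2. The 10 genes with most reads took 4.27 to 4.51% of the reads in scion and 8.80 to 9.66% in intact. No gene tells scion from intact hypocotyl by its identity, so the labels were checked only through markers of cell types. The ortholog of the phloem regulator APL (MA_201937g0010) had 91.8, 107 and 87.6 normalized reads (counts divided by the size factor of the library) in scion against 84.4, 82.3 and 80.6 in intact. The xylem regulator VND4 (MA_6777g0010) had 104, 87.9 and 59 in scion against 157, 167 and 170.0 in intact. Thus both vascular markers were present in every library, and the xylem marker was lower in all 3 scion libraries by a log2 difference of -0.9972, just short of the fold threshold. In tissue pieces, fewer cells of a type and less RNA per cell cannot be told apart.

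Grafting was followed by a broad change in the scion within 1 day. A gene was called at an adjusted p under 0.05 in edgeR's quasi-likelihood test and an absolute log2 fold change above 1. In total, 4378 genes were up-regulated (11.4% of those tested) and 4339 were down-regulated (11.3%). The near-even split depended on the scaling, because the same reads scaled by library size alone gave 5424 up-regulated and 3294 down-regulated genes, with the median of all genes shifted by 0.17 on the log2 scale. Without regard to the test, the 3 scion libraries all lay above the 3 intact libraries in 28.7% of genes and all below in 30.4%. For comparison, intact plants of day 1 differed from intact plants of day 0 in 57 up-regulated and 26 down-regulated genes, or 0.148% and 0.0676%. Those small counts rested on single libraries, with 13 and 11 genes without the second library of day 0, 33 up-regulated without the first, and 16 or 13 down-regulated without the first or the third library of day 1.

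The rises were larger than the falls. Among called genes, the median log2 change was 1.91 for the up-regulated and -1.57 for the down-regulated genes. A log2 change above 3 was reached by 1292 up-regulated and 499 down-regulated genes, and one above 5 by 567 and 55. Up-regulated genes took 19.6% ± 1.05 of the reads in scion against 4.92% ± 0.156 in intact (SD, n = 3). Down-regulated genes took 10.8% ± 0.868 in scion against 31.8% ± 0.636 in intact. Genes switched on outnumbered those switched off, since 100 genes had no read in any intact library and at least 10 in every scion library, against 5 genes of the opposite kind. A count of 0 limits a gene only to fewer than 3 reads over the group, the floor used for folds.

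The gene groups described next were built from words in the descriptions that the study gave to genes responding to auxin treatment in other libraries, and from its table of gene families and orthologs. These lists therefore hold only part of each family. Of the 2585 tested genes on the auxin treatment sheets, 1009 (39.0%) were up-regulated and 280 (10.8%) down-regulated in the scion, with a median log2 change of 0.70. Those shares, as well as the shares over all tested genes, are the background for the lists. Near-identical family members may share reads, which leaves the values of single members uncertain. List members named for the size of their change against intact were taken only where the scion and intact libraries did not overlap, so the separation of a named member is a condition of its choice and no result. Many counts of 0 to 2 in a direction did not move when single libraries were left out. Others moved by 1, as for falls among chaperones, histones, orthologs, 1,3-beta-glucanases and pathogenesis-related proteins. Falls among cell cycle genes ranged from 1 to 5, and rises among LEA proteins and dehydrins from 0 to 2.

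**Figure D1:**
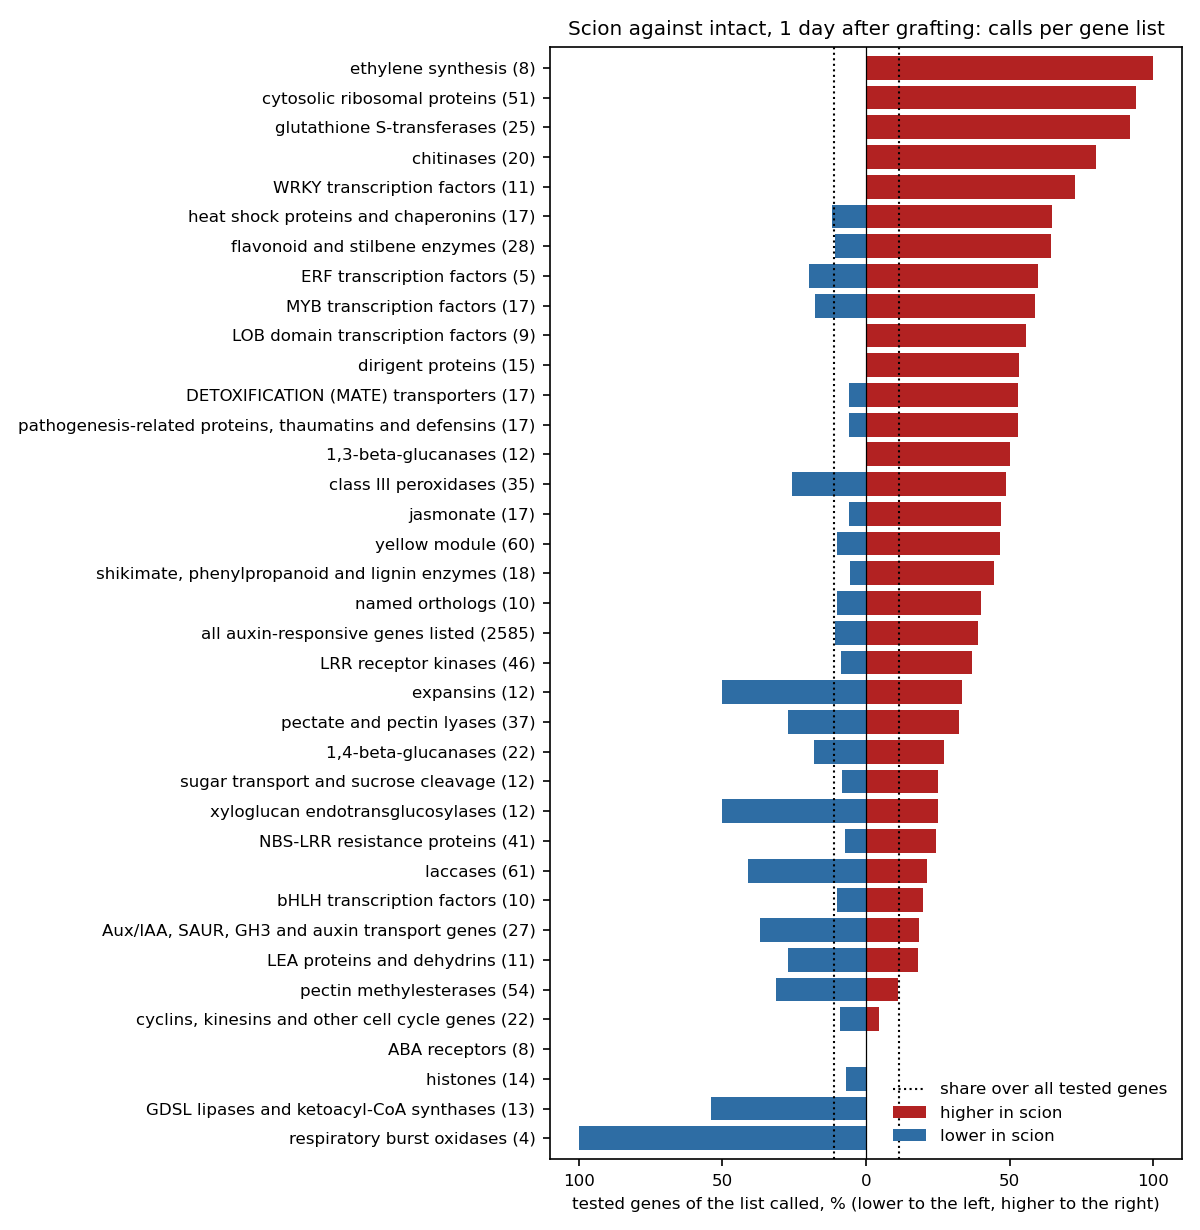
Share of the tested genes of each list, in percent, that were up-regulated (red, right) or down-regulated (blue, left) in scion against intact at 1 DAG, with the number tested in parentheses and dotted lines at the shares over all genes tested. Ethylene synthesis, cytosolic ribosomal proteins and glutathione S-transferases lay far to the right, with 100, 94.1 and 92% of their genes up-regulated. The ethylene genes had so few reads in intact that falls could hardly have been called.

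Genes of ethylene synthesis rose from very low levels in intact. All 8 tested genes for 1-aminocyclopropane-1-carboxylate (ACC) synthase, which makes the ethylene precursor, and ACC oxidase, which turns it into ethylene, were up-regulated, by fitted log2 changes of 2.43 to 7.96 that are imprecise where intact had few reads. The ACC synthase MA_17005g0010 had 86.7, 102 and 127 normalized reads in scion against 0, 0.755 and 0 in intact. With a single read in the intact group, the ratio of scion to intact was 356 with an exact 95% interval of 63.6 to 14113, which covers counting error only. ACC oxidase MA_10431299g0010 had 69.9, 67.4 and 107 in scion against 9.57, 7.55 and 3.27 in intact, a log2 change of 3.49 ± 0.48 (± gives the SE of a log2 change throughout, edgeR adjusted p = 8.5e-08). Summed over the list, the level was 366 ± 102 in scion and 25.7 ± 4.25 in intact (SD, n = 3), so these transcripts were scarce even when raised. With so few reads in intact, a fall could hardly have been called, and the lack of falls is no result. A stricter filter on low counts left 3 genes to test, and a fit of the scion and intact libraries of day 1 alone left 6, all up-regulated.

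Ethylene-responsive transcription factors (ERFs), DNA-binding proteins named for their response to that hormone, moved in both directions, with 3 of 5 tested up-regulated and 1 down-regulated. The ERF 5-like gene MA_27309g0010 had 406, 346 and 524 normalized reads in scion against 0, 0 and 2.18 in intact. The ratio was 720 (exact 95% interval 199 to 5954). ERF115 promotes regeneration after cell loss in Arabidopsis, and its spruce ortholog MA_10274g0010 had 259, 377 and 438 in scion against 0, 1.51 and 3.27 in intact, a log2 change of 7.79 ± 0.37 (edgeR adjusted p = 4e-20). An ERF4-like gene, MA_120531g0010, went the other way, with 86.7, 48.6 and 76.3 in scion against 429, 363 and 352 in intact. That fall was 2.45 on the log2 scale, or 5.48-fold.

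Of the other orthologs singled out by the study, those known from regeneration were higher in scion. WIND1 drives callus formation at wounds in Arabidopsis, and its spruce ortholog MA_98464g0010 had 228, 270.4 and 341 normalized reads in scion against 5.22, 4.53 and 12 in intact, a change of 39.6-fold. WOX13, a homeobox gene of callus and organ reconnection in Arabidopsis, is matched by MA_116716g0010, which had 119.6, 145 and 154 in scion against 13, 12.8 and 16.3 in intact. The log2 changes were 5.31 ± 0.64 and 3.30 ± 0.24 (edgeR adjusted p = 1.5e-08 and 3.4e-15). PAT1, which acts with ERF115 in Arabidopsis, is matched by MA_10426489g0020 with 96.8, 87.9 and 78.9 in scion against 53.9, 58.9 and 61 in intact, a log2 difference of 0.58 that passed the p threshold but not the fold threshold. The ortholog of LATERAL ROOT PRIMORDIUM 1 (MA_2299g0010) was called at 2.08 ± 0.66, with only 7.58, 10.2 and 6.07 in scion against 1.74, 1.51 and 2.18 in intact, and this call was lost when all libraries were thinned to equal depth (edgeR adjusted p = 0.0571).

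Markers of mature or dividing tissue did not follow the regeneration genes. The xylem peroxidase PRX66 ortholog, MA_10431507g0020, had 142, 142 and 115 normalized reads in scion against 425, 531 and 733 in intact, a fall of 2.09 on the log2 scale. CDKB2;2 is a cyclin-dependent kinase of dividing cells, and its ortholog MA_920994g0010 had 324, 355 and 305 in scion against 626, 639 and 555 in intact. The groups were fully separated, but the log2 difference of -0.91 did not pass the fold threshold. The MYB4 ortholog MA_316475g0010, named after a repressor of phenylpropanoid genes, overlapped between groups, with 21.9, 12.8 and 20.8 in scion against 15.7, 26.4 and 15.3 in intact. Over all 10 orthologs, 4 were up-regulated and 1 down-regulated.

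Jasmonate genes were raised in part. Of 17 tested, 8 (47.1%) were up-regulated and 1 was down-regulated, with a median log2 change of 1.17. That share of rises was not far above the 39.0% of the auxin treatment sheets. The 12-oxophytodienoate reductase MA_10435051g0010, of the enzyme family that reduces the jasmonate precursor, had 3701, 839 and 2872 normalized reads in scion against 8.7, 18.1 and 5.45 in intact. Its log2 change was 7.72 ± 0.49 (edgeR adjusted p = 5.9e-15), with the second scion library well below the other two. TIFY (JAZ) proteins repress jasmonate responses and are themselves induced by the hormone. The TIFY 9-like gene MA_19869g0010 had 75.8, 41 and 78.9 in scion and no read in intact, so it was at least 73.7-fold higher (floor of 3 reads over the intact group). The lipoxygenase MA_123947g0010, of the family that starts oxylipin synthesis, fell, with 26.1, 17.1 and 15.6 in scion against 36.5, 75.5 and 87.2 in intact.

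Further families of transcription factors were mostly higher. WRKY genes, regulators of defence and stress, had 8 of 11 up-regulated and none down-regulated, with a median of 2.89. MA_126273g0010, a WRKY57-like gene, had 668, 728 and 911 normalized reads in scion against 62.6, 52.8 and 45.8 in intact, and the WRKY72-like gene MA_11072g0010 rose by 6.04 on the log2 scale. Of 17 MYB genes, 10 were up-regulated and 3 down-regulated. MYB12, a regulator of flavonol synthesis in Arabidopsis, gives its name to MA_15502g0010, which had 497, 521 and 625 in scion against 2.61, 5.28 and 7.63 in intact, or 105-fold more. The scion values of these genes were close to each other relative to the distance from intact.

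LOB domain genes, among them regulators of lateral organs and callus in Arabidopsis, had 5 of 9 up-regulated and none down-regulated. The LOB domain 12 gene MA_113501g0010 had 149.9, 197 and 206 normalized reads in scion against 0.87, 5.28 and 3.27 in intact. A LOB domain 1-like gene, MA_10434193g0010, had 116, 112 and 165 in scion against 0, 0.755 and 0 in intact, a ratio of 443 (exact 95% interval 79.2 to 17546). Genes for bHLH factors stayed closer to the background, with 2 of 10 up-regulated and 1 down-regulated.

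**Figure D2:**
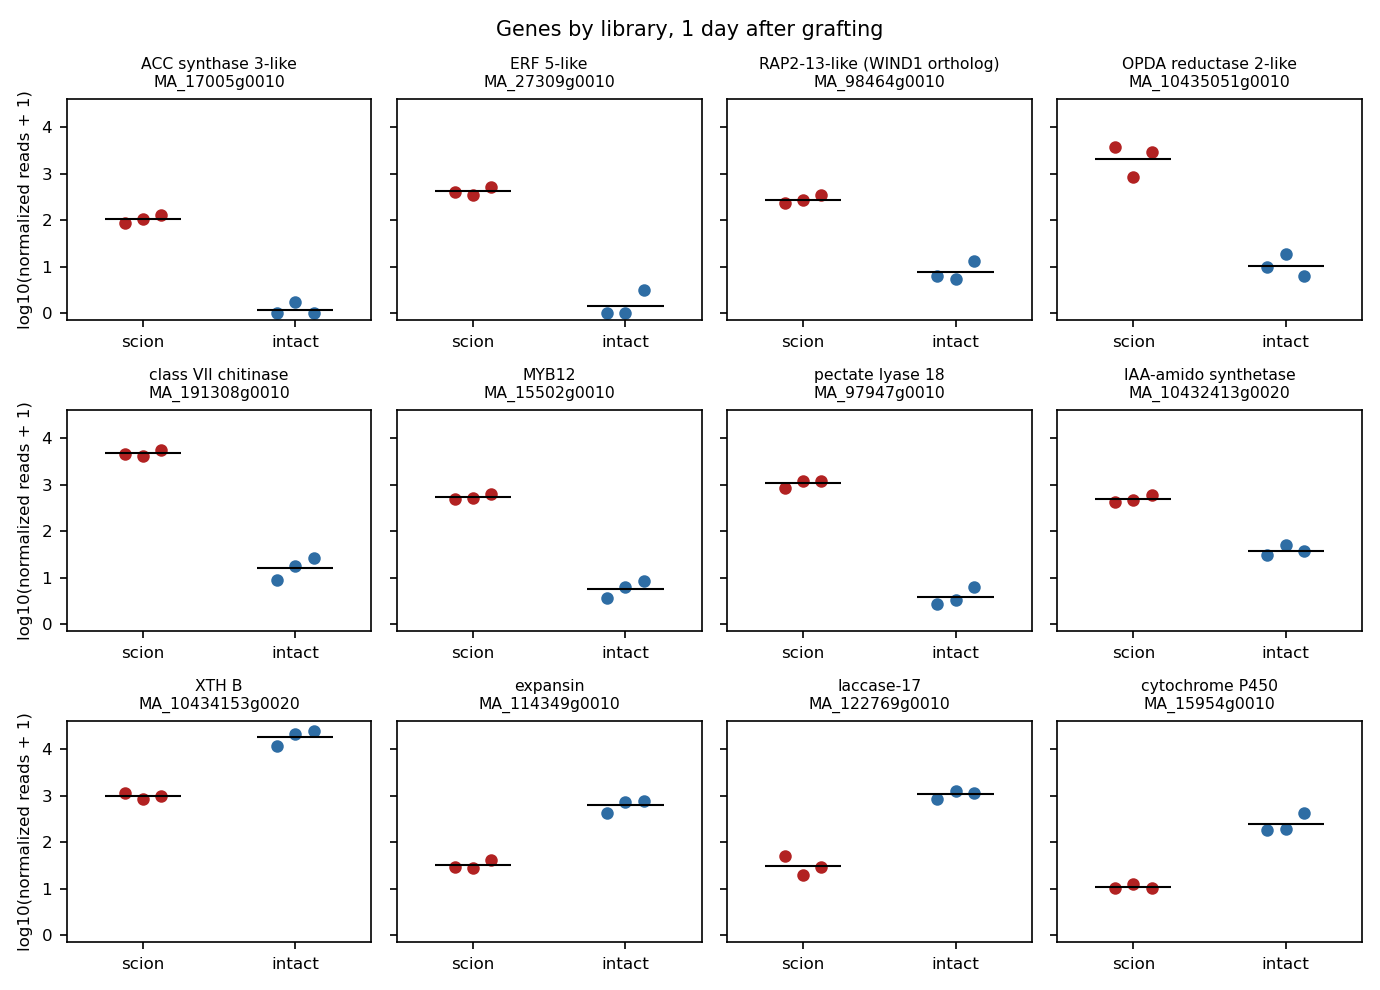
Normalized reads of 12 genes in each library at 1 DAG, on the scale log10(normalized reads + 1), with scion (red) left of intact (blue), points for single libraries and lines for group means on that scale. The 3 scion and 3 intact libraries do not overlap for these genes, as the choice of list members required of most of them, and 8 were higher and 4 lower in scion.

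Defence proteins were among the largest rises. Chitinases, which cut the cell walls of fungi, had 16 of 20 up-regulated and none down-regulated, with a median log2 change of 2.82. Beside each count of 0 down-regulated genes given so far and for dirigent proteins, glutathione S-transferases and ribosomal proteins below, no gene was lower at an unadjusted p under 0.05 in edgeR or called lower by DESeq2. The class VII chitinase MA_191308g0010 had 4609, 4169 and 5508 normalized reads in scion against 7.83, 16.6 and 25.1 in intact, or 291-fold more (edgeR adjusted p = 5e-11). Summed over the list, chitinase transcripts were 30619 ± 3072 in scion and 3905 ± 1506 in intact (SD, n = 3). Pathogenesis-related proteins, thaumatins and defensins had 9 of 17 up-regulated and 1 down-regulated, and 1,3-beta-glucanases, which degrade callose and fungal glucans, had 6 of 12 up-regulated and none down-regulated, although 4 were lower at an unadjusted p under 0.05 in edgeR and none by DESeq2.

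Some defence genes had reads in scion and none in intact. Thaumatin MA_10429511g0010, an antifungal protein, had 157, 277 and 358 normalized reads in scion and none in intact, at least 298-fold higher. A cysteine-rich secreted protein, MA_114182g0010, had 229, 263 and 282 in scion and none in intact, at least 291-fold higher. PR-10 gene MA_10429068g0010 had 714, 1619 and 1536 in scion against 9.57, 8.3 and 64.3 in intact. The third intact library was the highest of its group for that gene but still lay far below scion.

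Genes of immune receptors showed smaller shares of rises, and oxidases fell. Leucine-rich repeat (LRR) receptor kinases, which sense peptides and wounds at the cell surface, had 17 of 46 (37.0%) up-regulated and 4 down-regulated. Their share of rises was near the 39.0% of the auxin treatment sheets. The 4 falls were 1 without the second or the third scion library and 0 without the third intact library. NBS-LRR resistance proteins, the intracellular immune receptors, had 10 of 41 up-regulated and 3 down-regulated. All 4 tested respiratory burst oxidases, the membrane enzymes that make superoxide, were down-regulated, by 1.29 to 2.01 on the log2 scale. The homolog A gene MA_10435926g0010 had 57.3, 58 and 56.4 normalized reads in scion against 144, 179 and 202 in intact.

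Terpene synthases, which make the volatile and resin terpenes of conifers, did not move together. Longifolene synthase MA_10426551g0010, an enzyme of sesquiterpene synthesis, had 449.6, 476 and 855 normalized reads in scion against 0, 0 and 2.18 in intact, a ratio of 1003 (exact 95% interval 277 to 8291). Pinene synthase MA_14092g0010, of monoterpene synthesis, had 65.7, 46.9 and 67.7 in scion against 679, 1302 and 1859 in intact, which is 21.5-fold lower (log2 change -4.43 ± 0.51, edgeR adjusted p = 6.6e-09). These 2 terpene synthases were named by the size of their change and do not describe the whole family.

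Most listed flavonoid and stilbene genes were raised. Flavonoid and stilbene enzymes had 18 of 28 up-regulated and 3 down-regulated, with a median log2 change of 1.54, and their summed level was 70991 ± 8707 in scion and 13114 ± 524 in intact (SD, n = 3). Chalcone synthase makes the first flavonoid skeleton. The gene MA_10426264g0020, described as chalcone synthase, had 23992, 24293 and 27999 normalized reads in scion against 5159, 4999 and 4469 in intact, and MA_20764g0010, described only as chalcone, had 34887, 27926 and 35926 in scion against 2276, 2541 and 2586 in intact. Both were abundant, and the rises were 5.14-fold and 13.1-fold. An isoflavone reductase-like gene, MA_10181288g0010, had 434, 435 and 491 in scion against 3.48, 1.51 and 1.09 in intact. Stilbene synthase MA_10434819g0010, which makes the stilbene defence compounds of spruce, went against the list with 71.6, 37.5 and 40.8 in scion and 336, 744 and 382 in intact.

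The phenylpropanoid route feeds both flavonoids and lignin. Shikimate, phenylpropanoid and lignin enzymes, counted together, had 8 of 18 genes (44.4%) up-regulated and 1 down-regulated. That share of rises was near the 39.0% of the auxin treatment sheets. Arogenate dehydratase makes phenylalanine, and MA_10433230g0010 of this kind had 1607, 2190 and 2116 normalized reads in scion against 79.2, 114 and 123 in intact. Cinnamate 4-hydroxylase, described as trans-cinnamate 4-monooxygenase, takes the next steps after phenylalanine is deaminated. Its gene MA_10435536g0010 had 954, 1019 and 1639 in scion against 21.7, 15.1 and 30.5 in intact, a log2 change of 5.76 ± 1.01 (edgeR adjusted p = 1.3e-05). The down-regulated gene was the cytochrome P450 98A2-like MA_10434848g0020, of the family that hydroxylates lignin precursors, with 392, 411 and 298 in scion against 1535, 1676 and 1274 in intact. These members were named by the size of their change, so their directions do not describe the branches of the route.

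Dirigent proteins, which steer the coupling of monolignols into lignans, had 8 of 15 up-regulated and none down-regulated, and the up-regulated members rose by at least 3.39 on the log2 scale. The gene MA_108494g0010 (pDIR2) had 1419, 808 and 1384 normalized reads in scion against 4.35, 19.6 and 12 in intact. Another, MA_10428143g0020, had 152, 189 and 156 in scion against 0, 0 and 2.18 in intact, a ratio of 281 (exact 95% interval 77.4 to 2326). A phenylcoumaran benzylic ether reductase, an enzyme of lignan synthesis, showed 4919, 1708 and 3260 in scion against 60, 86.8 and 70.8 in intact for MA_17102g0020.

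Nearly all tested glutathione S-transferases were raised, and MATE transporters in part. Glutathione S-transferases, which couple glutathione to reactive or foreign molecules, had 23 of 25 up-regulated and none down-regulated, with a median log2 change of 4.27. The tau class member MA_188810g0010 had 2042, 1564 and 2367 normalized reads in scion against 37.4, 41.5 and 40.3 in intact, or 49.1-fold more, and MA_10101302g0010 had 292, 116 and 226 in scion against 3.48, 3.02 and 4.36 in intact. Summed levels were 27498 ± 3209 in scion and 3285 ± 159.5 in intact (SD, n = 3). DETOXIFICATION transporters of the MATE family, which export small molecules or load them into the vacuole, had 9 of 17 up-regulated and 1 down-regulated. MA_114301g0010 of that family had 2577, 2204 and 2834 in scion against 217, 197 and 218 in intact, whereas MA_19156g0010 had 7.58, 5.97 and 13.9 in scion against 126, 171 and 123 in intact.

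Class III peroxidases, the secreted enzymes that oxidize monolignols and crosslink walls, split into rising and falling members. Of 35 tested, 17 were up-regulated and 9 down-regulated, with a median log2 change of 0.64 that was -0.01 in a fit of the scion and intact libraries of day 1 alone and -0.04 without the third scion library. The cationic peroxidase MA_170257g0010 had 2290, 1762 and 2421 normalized reads in scion against 8.7, 15.9 and 4.36 in intact, or 205-fold more. The peroxidase 66 gene MA_100063g0010 had 32.8, 32.4 and 31.2 in scion against 122, 181 and 193 in intact.

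**Figure D3:**
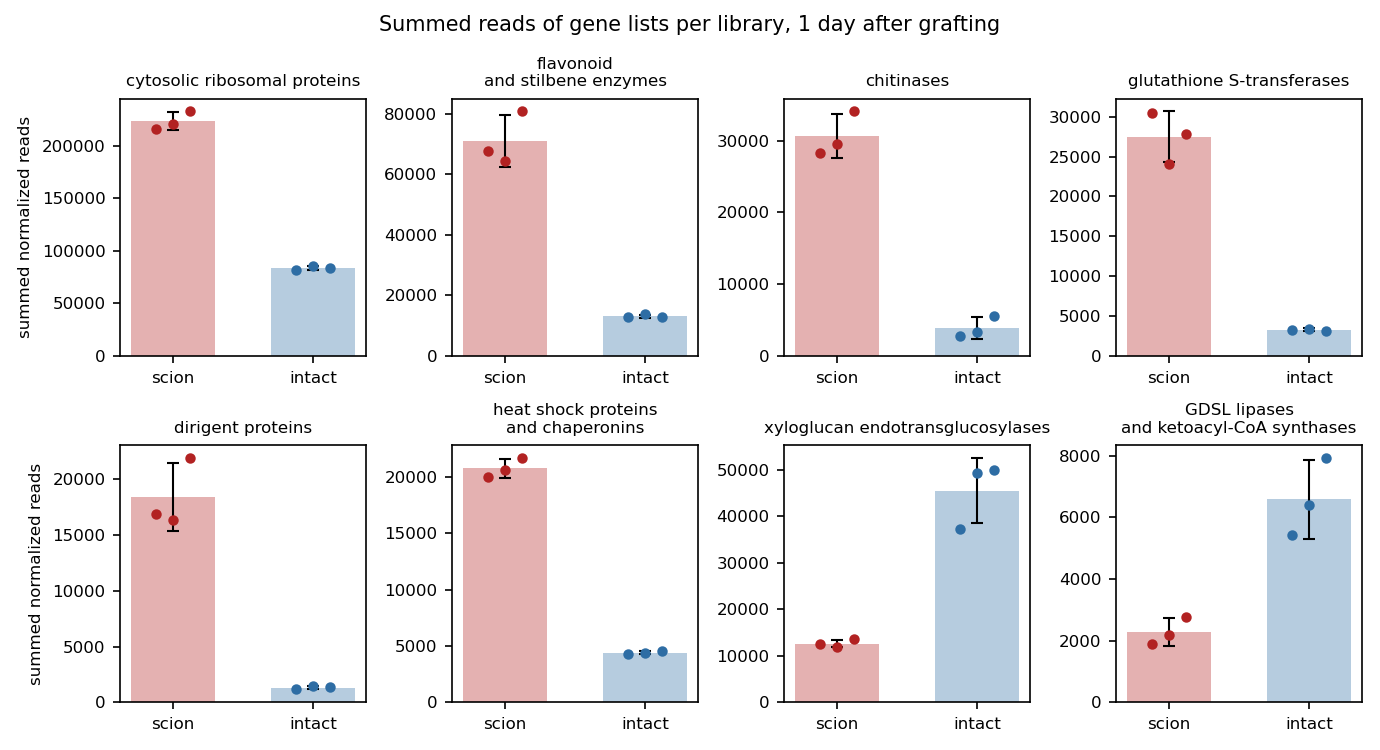
Summed normalized reads of 8 gene lists in scion (red) and intact (blue) libraries at 1 DAG, with bars at the mean, error bars of 1 SD over 3 libraries and points for single libraries. Sums were higher in scion for 6 lists and lower for xyloglucan endotransglucosylases and for GDSL lipases with ketoacyl-CoA synthases, with no overlap between groups.

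Genes of cytosolic ribosomal proteins, the parts of the protein-making machinery, shifted by a small and even amount. Of 51 tested, 48 were up-regulated and none down-regulated, with log2 changes of 0.86 to 2.11 around a median of 1.37. All 51 had every scion library above every intact library. The summed level was 216486, 220960 and 233114 in scion against 82203, 85686 and 84127 in intact, or 1.23% of all reads in scion and 0.416% in intact. The 40S protein S6 gene MA_10426804g0010 had 4736, 5266 and 5485 in scion against 1247, 1318 and 1142 in intact, and the S15 gene MA_14543g0010 changed by 2.05 ± 0.10 on the log2 scale (edgeR adjusted p = 3.8e-20).

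Heat shock proteins and chaperonins, which fold other proteins, had 11 of 17 up-regulated and 2 down-regulated. Chaperonins form folding chambers in mitochondria and plastids. The largest rises on the list were those of CPN60 gene MA_10436324g0010, described as mitochondrial, with 2179, 2196 and 2442 normalized reads in scion against 334, 299 and 368 in intact and the 10 kDa chaperonin MA_10429427g0010, with 1561, 1563 and 1720 in scion against 226, 198 and 214 in intact. Replicates within a group differed little for both, and the changes were 6.73-fold and 7.5-fold. The 2 down-regulated members, MA_170942g0010 and MA_276247g0010, were both described as chloroplast dnaJ chaperones. These were singled out after their values were seen, and they fell by 1.97 and 2.14 on the log2 scale.

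Cell wall genes moved in both directions. Expansins, which loosen walls during growth, had 4 of 12 up-regulated and 6 down-regulated. The expansin A8-like gene MA_10429288g0020 had 1310, 1322 and 1590 normalized reads in scion against 276, 235 and 236 in intact, whereas expansin MA_114349g0010 had 28.6, 27.3 and 39.9 in scion against 425, 738 and 745 in intact. The log2 changes were 2.48 ± 0.17 and -4.33 ± 0.48. Xyloglucan endotransglucosylases (XTHs), which cut and rejoin hemicellulose, had 3 of 12 up-regulated and 6 down-regulated. The XTH gene MA_10251013g0010 had 3205, 3494 and 3882 in scion against 465, 778 and 730.1 in intact. The more abundant MA_10434153g0020 had 1107, 849.7 and 954 in scion against 11779, 20987 and 23930 in intact. This gene made up only part of the fall in the summed XTH level, which was 12631 ± 830.4 in scion and 45512 ± 7072 in intact (SD, n = 3).

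Laccases, which oxidize monolignols for lignin, fell more often than they rose. Of 61 tested, 13 were up-regulated and 25 (41%) down-regulated, with a median log2 change of -0.77. Laccase-17 is a main lignin laccase in Arabidopsis, and MA_122769g0010 of that name had 49.7, 18.8 and 28.6 normalized reads in scion against 835, 1254 and 1130 in intact, a 33.5-fold fall. In contrast, the laccase-1 gene MA_10433581g0010 had 52.2, 45.2 and 84.2 in scion and no read in intact, at least 68.2-fold higher. The summed level, 16335 ± 1367 in scion and 19418 ± 2189 in intact (SD, n = 3), differed far less than these members.

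Pectin genes also split. Pectate and pectin lyases, which cleave the pectin that glues cells together, had 12 of 37 up-regulated and 10 down-regulated. Pectate lyase 18-like MA_97947g0010 had 842, 1181 and 1189 normalized reads in scion against 1.74, 2.26 and 5.45 in intact, or 343-fold more (edgeR adjusted p = 1.5e-18). A second gene described as pectate lyase 18, MA_10426822g0020, had 1106, 1438 and 1365 in scion against 61.8, 74.7 and 70.8 in intact. The more abundant pectate lyase 8-like MA_203992g0010 went down, with 2394, 2367 and 2953 in scion against 8864, 12440 and 11462 in intact, and the summed level of the list was lower in scion, at 10331 ± 768 against 16686 ± 1626 (SD, n = 3).

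Pectin methylesterases, which set the stiffness of pectin, had 6 of 54 up-regulated and 17 (31.5%) down-regulated. MA_436039g0010 rose, with 1085, 1020 and 1081 normalized reads in scion against 355, 333 and 347 in intact. MA_648837g0010 was close to gone, with 3.37, 4.27 and 1.74 in scion against 95.7, 129.8 and 100.2 in intact. The 1,4-beta-glucanases, a group that includes cellulases of wall remodelling, had 6 of 22 up-regulated and 4 down-regulated, and their summed level was higher, at 21785 ± 2471 in scion and 12662 ± 1017 in intact. Endoglucanase 3 gene MA_697188g0010 had 36.2, 134 and 83.3 in scion against 7.83, 4.53 and 3.27 in intact, and endoglucanase 17 gene MA_16152g0010 had 35.4, 51.2 and 43.4 in scion against 305, 338 and 246 in intact.

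A set of 60 tested genes that the study grouped in a yellow co-expression module had 28 up-regulated and 6 down-regulated, with a median of 1.17. That module was defined on these same libraries, so its count is not independent evidence of a direction. By contrast, GDSL lipases together with ketoacyl-CoA synthases, the latter of which elongate fatty acids for wax, had 7 of 13 down-regulated. None was up-regulated by edgeR, with 1 higher at an unadjusted p under 0.05 and 1 called by DESeq2. The ketoacyl-CoA synthase 10 gene MA_10429708g0010 had 980.1, 1315 and 1876 normalized reads in scion against 3757, 4583 and 5683 in intact.

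The auxin list had more falls than rises. Among Aux/IAA, SAUR, GH3 and auxin transport genes, 5 of 27 were up-regulated and 10 (37%) down-regulated, with a median log2 change of -0.59. Aux/IAA proteins repress auxin responses and are induced by the hormone. The IAA8-like gene MA_10431093g0030 had 636, 781 and 791 normalized reads in scion against 2484, 2897 and 3320 in intact. The SAUR-like gene MA_10431311g0010, described as auxin-induced 15A, had 10.1, 5.97 and 14.7 in scion against 93.1, 173 and 58.8 in intact.

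GH3 enzymes attach amino acids to auxin and so remove the free hormone. Of the 6 auxin-amido synthetases on the list, a subset counted after its values were seen, 3 were up-regulated and 2 down-regulated. GH3 gene MA_10432413g0020, an indole-3-acetic acid-amido synthetase, had 413, 458 and 600.3 normalized reads in scion against 29.6, 49.1 and 36 in intact, and MA_10434772g0010 of the same kind had 41.3, 57.2 and 60.7 in scion against 3.48, 10.6 and 5.45 in intact. These 2 rose, by 3.64 ± 0.56 and 2.94 ± 0.43 on the log2 scale (edgeR adjusted p = 1.4e-06 and 2e-07). Genes described as indole-3-acetate O-methyltransferase, which methylates auxin, were almost absent from intact. MA_13253g0010 had 249, 188 and 326 in scion and no read in intact, at least 287-fold higher. MA_25646g0010 had 1253, 1258 and 1467 in scion against 0, 2.26 and 2.18 in intact, a log2 change of 9.68 ± 0.62.

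Genes of other hormones gave isolated changes. The cytochrome P450 gene MA_15954g0010, described as a member of the family that inactivates brassinosteroids, had 9.26, 11.9 and 9.54 normalized reads in scion against 184, 186 and 419.5 in intact, or 25.6-fold less. A gibberellin-responsive GAST1-like gene, MA_24001g0010, had 27.8, 26.4 and 37.3 in scion against 304, 832 and 649 in intact. None of 8 tested abscisic acid receptors was called in either direction by edgeR or DESeq2, with 1 lower at an unadjusted p under 0.05 in edgeR, and their summed level was only 72.6 ± 5.81 in scion and 121 ± 5.38 in intact (SD, n = 3), a depth at which single members could hardly be compared. LEA proteins and dehydrins, which protect cells from drying, had 2 of 11 up-regulated and 3 down-regulated, and none was up-regulated without the third scion, the first intact or the second intact library. The dehydrin MA_104214g0010 had 3084, 5860 and 4897 in scion against 449.7, 847 and 3584 in intact, a log2 change of 1.50. This call (edgeR adjusted p = 0.024) was lost without the second scion library (edgeR adjusted p = 0.0819), without the third (0.0504) and without the first or the second intact library (0.138 and 0.119).

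Some of the named genes that rose act in nitrogen or sugar supply, and those of nitrogen supply had no list to count them over. Glutamine synthetase, which assimilates ammonium, was represented by MA_15508g0010 with 43770, 41784 and 42656 normalized reads in scion against 19131, 18028 and 17952 in intact. The ammonium transporter MA_226001g0010 had 661, 543 and 697 in scion against 1.74, 7.55 and 19.6 in intact, a log2 change of 6.11 ± 0.47 (edgeR adjusted p = 3.2e-13). An NBR1 homolog, named after a receptor of selective autophagy, had 30317, 26116 and 33036 in scion against 5911, 6274 and 6320 in intact for MA_10436174g0030. Sugar transport and sucrose cleavage had 3 of 12 genes up-regulated and 1 down-regulated, and the sugar carrier MA_170670g0010, which takes up hexoses, had 2999, 2678 and 2904 in scion against 338, 265 and 440.2 in intact.

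The genes with the largest loss of reads had no description in the sources used here. MA_10431300g0020 had 120816, 72645 and 72114 normalized reads in scion against 418644, 382727 and 345673 in intact. MA_131587g0010 had 40102, 31004 and 26342 in scion against 266876, 261754 and 237020 in intact, a fall of 2.99 on the log2 scale. The groups of libraries did not overlap for either gene. In the opposite direction, the undescribed MA_6198238g0010 had 85415, 104968 and 97937 in scion against 33057, 31791 and 24035 in intact. MA_774247g0010 had no read in scion and 43.5, 78.5 and 37 in intact, at least 64.9-fold lower.

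Cell division genes were not raised at 1 DAG. Of 22 tested cyclins, kinesins and other cell cycle genes, 1 (4.55%) was up-regulated and 2 (9.09%) down-regulated, with a median log2 change of -0.41. The shares were 11.4% and 11.3% among all genes, and 39.0% and 10.8% on the auxin treatment sheets. The falls were thus near both backgrounds. The falls numbered 4 without the first scion library and 5 without the first intact library. Histone genes, whose transcripts accompany DNA replication, had none of 14 up-regulated by edgeR or DESeq2, with 3 higher at an unadjusted p under 0.05 in edgeR, and 1 down-regulated. The cyclin-dependent kinase inhibitor SMR4-like gene MA_207601g0010, of a family that restrains the cell cycle, had 311, 259 and 265 normalized reads in scion against 78.3, 162 and 156 in intact. Its log2 change of 1.06 lay close to the threshold and was 0.79 without the first intact library and 0.97 without the first scion library. The cell division control 2 homolog MA_16797g0020 had 96, 78.5 and 60.7 in scion against 201, 179 and 148 in intact.

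To ask where the scion differed from tissue below the graft junction, scion and rootstock libraries of day 1 were compared directly. Their libraries held 21325222 to 23562451 reads in rootstock. In total, 2447 genes (6.37%) were higher in scion and 1458 (3.79%) lower. On the auxin treatment sheets, the shares were 10.4% and 10.6%. Scion and rootstock came from different plants, and the intact piece was not divided into an upper and a lower part. A difference by position along the hypocotyl therefore cannot be told apart here from an effect of grafting. Most genes called against intact had no called difference from rootstock, namely 3269 of the 4378 up-regulated and 3539 of the 4339 down-regulated genes. None of 51 ribosomal protein genes was called by edgeR or DESeq2 in either direction, with 16 higher and 1 lower at an unadjusted p under 0.05 in edgeR and a median log2 difference of 0.12. Ethylene synthesis was called in 2 of 8 genes, both higher in scion. ACC synthase MA_17005g0010, with 86.7, 102 and 127 normalized reads in scion, had only 2.92, 0 and 0 in rootstock, a log2 difference of 6.70 ± 0.56 (edgeR adjusted p = 1.7e-11).

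**Figure D4:**
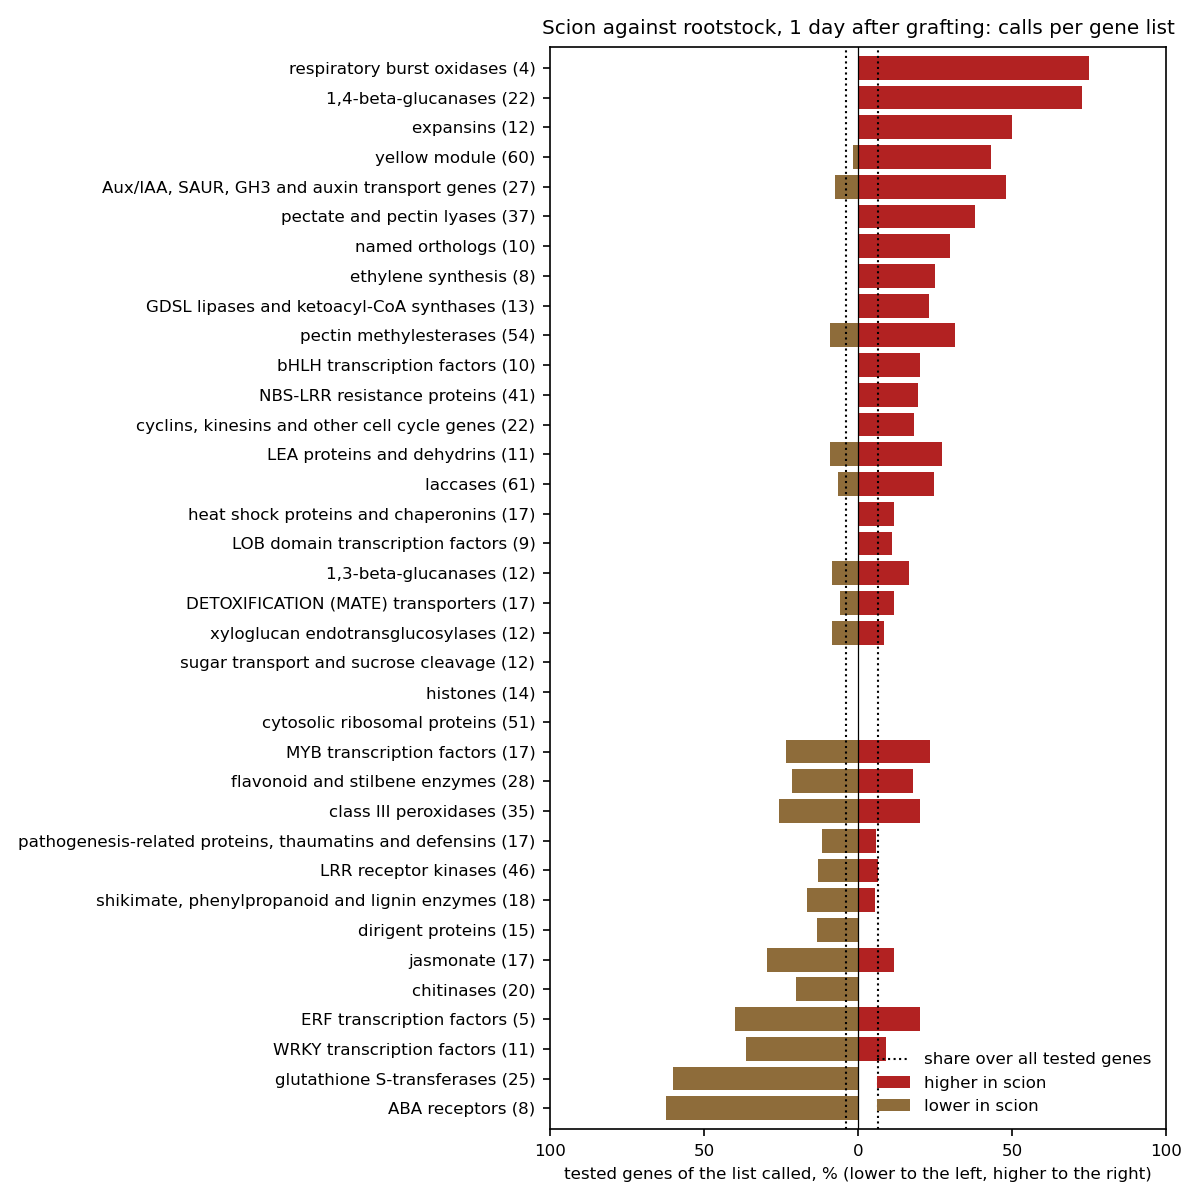
Share of the tested genes of each list, in percent, that were higher (red, right) or lower (brown, left) in scion against rootstock at 1 DAG, with the number tested in parentheses and dotted lines at the shares over all genes tested. 1,4-beta-glucanases, expansins, pectate and pectin lyases and auxin genes extended to the right, xyloglucan endotransglucosylases and class III peroxidases extended to both sides, and glutathione S-transferases and abscisic acid receptors extended to the left.

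Several lists of wall enzymes had more genes higher than lower in scion against rootstock, and others did not. The 1,4-beta-glucanases had 16 of 22 higher and none lower, pectate and pectin lyases 14 of 37 and none, expansins 6 of 12 and none, and pectin methylesterases 17 of 54 and 5. Laccases had 15 of 61 higher and 4 lower around a median log2 difference of -0.02, and the 15 were 8 without the third rootstock library and 9 without the first scion library. Xyloglucan endotransglucosylases had 1 of 12 higher and 1 lower, and class III peroxidases 7 of 35 higher and 9 lower. Pectate lyase MA_10426822g0020 had 1106, 1438 and 1365 normalized reads in scion against 80.8, 96.9 and 176 in rootstock, a log2 difference of 3.46 ± 0.20 (edgeR adjusted p = 1.6e-15). Expansin MA_10429288g0020 had 1310, 1322 and 1590 in scion against 352, 238 and 209 in rootstock. For wall genes that were below intact in the scion, the rootstock could be lower still, as for endoglucanase 17 gene MA_16152g0010 with 35.4, 51.2 and 43.4 in scion against 20.5, 6.98 and 23.5 in rootstock.

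Auxin genes had 13 of 27 higher and 2 lower in scion than in rootstock, with a median log2 difference of 1.64. GH3 gene MA_10432413g0020 had 413, 458 and 600.3 normalized reads in scion against 16.6, 18.3 and 18.5 in rootstock, a log2 difference of 4.78 ± 0.62 (edgeR adjusted p = 2.1e-07). The IAA8-like gene MA_10431093g0030 had 636, 781 and 791 in scion against 254, 234 and 224 in rootstock. This repressor was thus lowest in rootstock and highest in intact. The PR-10 gene MA_10429068g0010 and the dehydrin MA_104214g0010 were likewise higher in scion than in rootstock, by 3.43 ± 0.56 and 3.91 ± 0.62 on the log2 scale.

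Several lists of detoxification and defence had more genes lower than higher in scion against rootstock, and others were mixed or went the other way. Glutathione S-transferases had 15 of 25 lower and none higher, and MA_10101302g0010 had 292, 116 and 226 normalized reads in scion against 1078, 905 and 719.9 in rootstock. Jasmonate genes had 5 of 17 lower and 2 higher, and chitinases 4 of 20 lower and none higher. WRKY genes had 4 of 11 lower and 1 higher. LRR receptor kinases had 6 of 46 (13.0%) lower and 3 higher, near the 10.6% lower on the auxin treatment sheets. The 4 chitinases were 2 without the second rootstock library and 7 without the first. In contrast, NBS-LRR genes had 8 of 41 higher and none lower, the 8 being 5 without the first scion library. MATE transporters had 2 of 17 higher and 1 lower, 1,3-beta-glucanases 2 of 12 higher and 1 lower, and pathogenesis-related proteins, thaumatins and defensins 1 of 17 higher and 2 lower. The reductase MA_10435051g0010 had 3701, 839 and 2872 in scion against 16978, 13758 and 10770 in rootstock, a log2 difference of -2.48 ± 0.32 (edgeR adjusted p = 1.9e-07). A gibberellin methyltransferase-like gene, MA_10432902g0010, had 59.8, 120.3 and 108 in scion against 1069, 1115 and 1476 in rootstock, while scion against intact missed the threshold (log2 difference -0.56, edgeR adjusted p = 0.1). Abscisic acid receptors had 5 of 8 lower in scion.

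Among the regeneration orthologs, the WIND1 gene was called between scion and rootstock, and the ERF115 and WOX13 genes were not. MA_10274g0010 (ERF115) had 259, 377 and 438 normalized reads in scion against 283, 454 and 466 in rootstock, a log2 difference of -0.16 ± 0.18. MA_98464g0010 (WIND1) had 228, 270.4 and 341 in scion against 145, 154 and 63.8 in rootstock, 1.23 ± 0.44 higher (edgeR adjusted p = 0.039). The difference for WOX13, -0.66 ± 0.18, passed the p threshold but not the fold threshold.

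The day 1 pattern was then set against that at 3 DAG, each scion group against the intact plants of its own day. The scion effect was larger (more positive) at 3 DAG in 1671 genes (4.35%) and smaller (more negative) in 892 (2.32%). Cell cycle genes had 10 of 22 larger and none smaller, and histones 6 of 14 larger and none smaller. The CDKB2;2 ortholog MA_920994g0010 averaged 1124 normalized reads in scion and 737 in intact at 3 DAG, and the effect was 1.55 ± 0.16 higher than at 1 DAG (edgeR adjusted p = 3.2e-09). The median log2 change of the cell cycle list was 0.90 at 3 DAG and -0.41 at 1 DAG.

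Vascular orthologs and some wall lists had more positive effects at 3 DAG. The PRX66 ortholog MA_10431507g0020 averaged 1079 normalized reads in scion and 268 in intact at 3 DAG, where 1 DAG had shown a fall, and the effects differed by 4.13 ± 0.41. VND4 (MA_6777g0010) averaged 348 in scion and 184 in intact. The phloem gene APL (MA_201937g0010), which was level at 1 DAG, averaged 137 in scion and 58.9 in intact at 3 DAG. Expansins had 3 of 12 larger and none smaller, pectate and pectin lyases 7 of 37 and none, and pectin methylesterases 12 of 54 and 1. Laccases had 4 of 61 larger and 4 smaller, xyloglucan endotransglucosylases 1 of 12 larger and none smaller, and class III peroxidases 8 of 35 larger and 4 smaller with a median log2 difference of -0.87.

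Several lists of defence and detoxification had more genes with a smaller than with a larger effect at 3 DAG, and others were mixed. Glutathione S-transferases had 11 of 25 smaller and 1 larger, with a median log2 change of 2.38 at 3 DAG and 4.27 at 1 DAG, and chitinases had 4 of 20 smaller and none larger. Without the first intact library of day 3, 5 and 2 were smaller, and leaving out each of the other libraries gave 6 to 11 glutathione S-transferases. Flavonoid and stilbene enzymes had 6 of 28 smaller and 1 larger, jasmonate genes 4 of 17 smaller and 1 larger, and MATE transporters 3 of 17 smaller and none larger. Pathogenesis-related proteins, thaumatins and defensins had 1 of 17 larger and none smaller, dirigent proteins 1 of 15 larger and 1 smaller, NBS-LRR genes 2 of 41 larger and 2 smaller, and respiratory burst oxidases 1 of 4 larger. None of 12 1,3-beta-glucanases was called by edgeR, with 3 larger and 1 smaller at an unadjusted p under 0.05 and 1 called smaller by DESeq2. The reductase MA_10435051g0010 averaged 52.6 normalized reads in scion and 6.65 in intact at 3 DAG, and its effect was 4.82 ± 1.40 lower than at 1 DAG (edgeR adjusted p = 0.015). No ribosomal protein gene was called by edgeR or DESeq2 in this comparison, although 22 of 51 had a smaller effect at 3 DAG at an unadjusted p under 0.05 in edgeR, with median log2 changes of 1.21 at 3 DAG and 1.37 at 1 DAG.

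**Figure D5:**
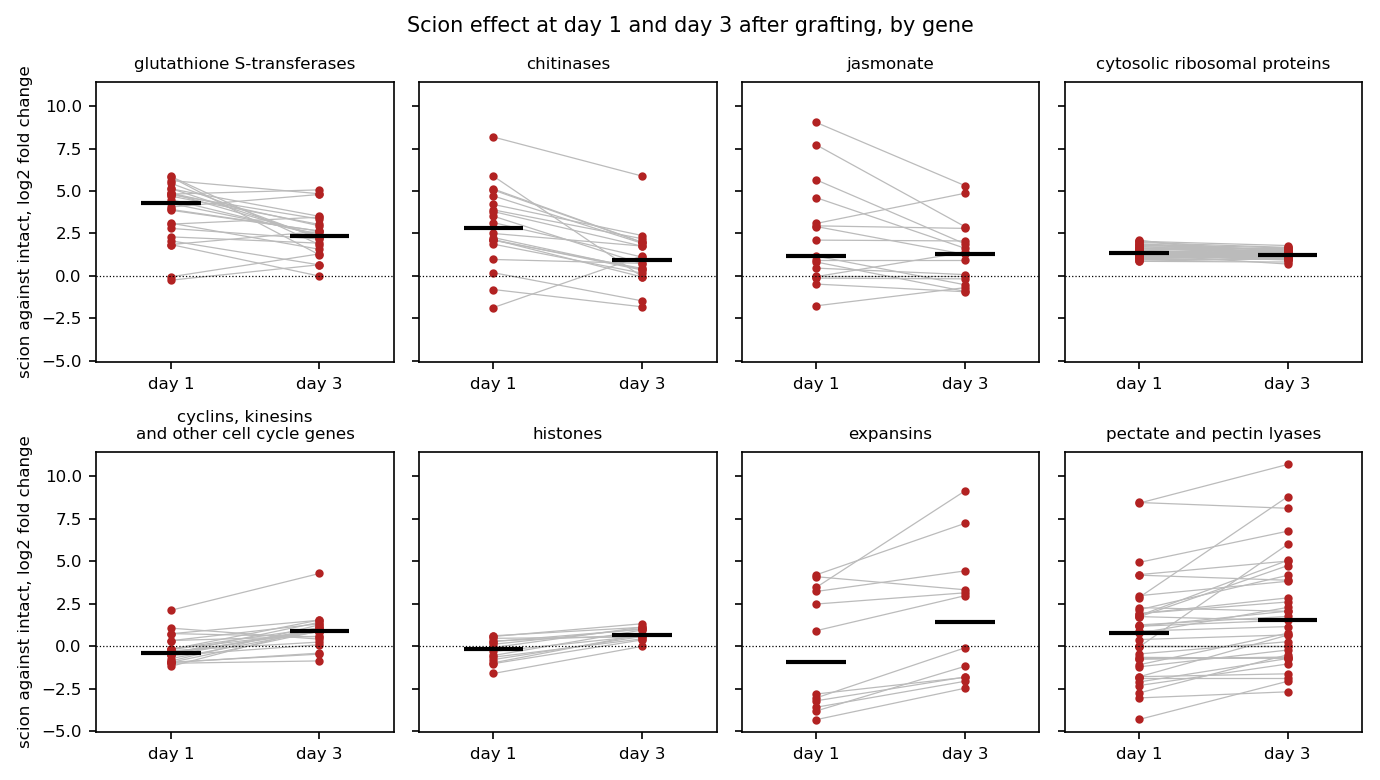
Log2 fold change of scion against intact for every tested gene of 8 lists at 1 and 3 DAG, with points for genes, thin lines joining the same gene and thick bars at the list medians. Glutathione S-transferases and chitinases lay lower at 3 DAG, ribosomal proteins stayed near the same level, and cell cycle genes, histones, expansins and lyases lay higher.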

How the data were processed

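RNA was sequenced from grafted and intact hypocotyls in stranded poly(A) libraries, 48 in all, with 3 biological replicates per group and 5 plants pooled in each. Per the study's methods, the authors removed ribosomal reads, trimmed with fastp, aligned read pairs to the Picea abies genome v1.0 with STAR and counted them per gene with HTSeq. The deposited values are raw counts per gene model, with no normalization. Genes passing filterByExpr with a minimum count of 10 were scaled by TMM and tested in edgeR 4.0.16 (R 4.3.3) with quasi-likelihood F tests on all 48 libraries in 16 groups, with Benjamini-Hochberg adjustment over 38436 genes. Normalized reads are counts divided by DESeq2 1.42.0 size factors. SE is the absolute log2 change divided by the square root of F, and can be too small where few reads were counted. Intervals are exact binomial at 95% and cover counting error only. A gene without reads in a group was set to a floor of 3 reads over that group.

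The spread between replicates is that between pools of plants. The steps were tested on simulated data. The genes named were the study's orthologs, per list the 2 largest rises and 2 largest falls with at least 50 normalized reads and no overlap, the largest changes among described genes with at least 200, and the largest gains and losses of reads. Genes without a read in a group were named by their reads in the other. Described genes with the largest called differences from rootstock, or between day 3 and day 1, were also named. From all of these, those with an interpretable role are given. Members and lists were chosen with earlier results of these data known. Alternatives were other scalings, filters, fits and tools, thinned libraries, a replicate block, day 0 controls and leaving out each library. Names come from the study's gene tables, which were held only in part.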

Additional observations from a re-analysis of the deposited data

Results flagged for a closer look

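The effect of grafting in the scion, measured against intact plants of the same day, differed between 3 and 1 DAG for 25 genes among those named, each by an interaction contrast in edgeR at an adjusted p under 0.05 and an absolute difference above 1. Over all tested genes, 4.35% were called more positive at day 3 and 2.32% more negative. Some of the 25 were named for the size of this difference, so for them the call is a condition of choice and no result. The differences are given on the log2 scale as day 3 minus day 1, and no cause was tested.

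Vascular and cell division genes had a more positive effect at day 3. For a gene that had fallen at 1 DAG, this can mean a smaller fall. The difference was 1.96 for the VND4 ortholog MA_6777g0010, 4.13 for the PRX66 ortholog MA_10431507g0020, 4.86 for the peroxidase MA_100063g0010 and 1.09 for the APL ortholog MA_201937g0010. It was 1.55 for the CDKB2;2 ortholog MA_920994g0010 and 2.29 for the cell division control 2 homolog MA_16797g0020. Wall enzymes also had positive differences, with 3.13 for endoglucanase 17 gene MA_16152g0010, 4.49 for the mannan-cutting MA_10427065g0010 and 1.38 for pectate lyase MA_203992g0010. The endoglucanase and the pectate lyase had fallen at 1 DAG. Pectin methylesterase MA_436039g0010 had -1.30.

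Regulators with a more positive effect at day 3 were the ERF4-like MA_120531g0010 with 2.10 and the MYB4 ortholog MA_316475g0010 with 2.44. Defence genes of this kind were the respiratory burst oxidase MA_10435926g0010 with 3.23, stilbene synthase MA_10434819g0010 with 2.12 and the PR-1-like gene MA_102795g0010 with 10.23. That last gene had 0.842, 12.8 and 5.21 normalized reads in scion and 0, 1.51 and 3.27 in intact at 1 DAG, and averaged 568 in scion at 3 DAG with none in intact, so the fitted difference is no measure of its size. The undescribed MA_131587g0010 had 1.48. The ERF4-like gene, the oxidase, stilbene synthase and MA_131587g0010 had fallen at 1 DAG, so their positive differences do not by themselves mean a rise above intact.

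A more negative effect at day 3 was found for genes that had risen at 1 DAG. The difference was -4.82 for the 12-oxophytodienoate reductase MA_10435051g0010, -4.59 for glutathione S-transferase MA_10101302g0010, -4.35 for the ammonium transporter MA_226001g0010, -4.28 for the benzylic ether reductase MA_17102g0020, -3.14 for the isoflavone reductase-like MA_10181288g0010 and -2.66 for the cationic peroxidase MA_170257g0010. It was -1.48 for the chalcone gene MA_20764g0010 and -1.43 for the NBR1 homolog MA_10436174g0030. The gibberellin methyltransferase-like MA_10432902g0010, which had not passed the test at 1 DAG, had -1.47.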

How the results depend on the processing

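Of the 85 genes named or eligible to be named, 76 kept their call against intact under all 16 alternatives and none changed direction. Many of these genes were chosen for large, called and non-overlapping changes, so stable calls were partly set by that choice. Requiring a change beyond the fold threshold in the test itself (glmTreat) gave 2685 up-regulated and 2053 down-regulated genes. DESeq2 gave 4588 and 4232, and 10 genes lower in intact of day 1 against day 0. Replicate numbers did not pair the libraries, since the deviations of same-numbered libraries correlated at 0.019, -0.072 and 0.061 for scion and intact and at 0.213, -0.213 and -0.0602 for scion and rootstock. The first scion and rootstock libraries correlated best with each other, while the second and the third correlated best across numbers, at 0.227 and 0.291. A replicate block gave 4387 and 4301 against intact, 2412 and 1466 against rootstock, and 1686 and 915 for day 3 minus day 1. Leaving out each library gave 4191 to 4404 up-regulated and 3998 to 4379 down-regulated genes against intact, 2171 to 2422 and 1236 to 1442 against rootstock, 1468 to 1725 and 770 to 907 for day 3 minus day 1, 13 to 62 and 11 to 26 for intact day 1 against day 0, and 442 to 468 calls over the lists. With library size scaling, genes up-regulated held 23.6% of the reads in scion and 6.81% in intact, and genes down-regulated 7.99% and 26.5%. With DESeq2, the intact shares were 5.19% and 30.3%. The calls of MA_123947g0010, MA_10429708g0010 and MA_16797g0020 were lost in glmTreat. VND4 (MA_6777g0010) was called lower under 6 alternatives and CDKB2;2 (MA_920994g0010) with day 0 controls, at -1.46. Among the lists, a stricter filter on low counts left 3 up-regulated genes of ethylene synthesis, where 8 had been called, glmTreat left 1 respiratory burst oxidase and 15 laccases down-regulated, fitting scion and intact of day 1 alone gave 2 up-regulated expansins, and day 0 controls gave 7 down-regulated cell cycle genes. Depth limited genes with few reads, whose folds are bounds or ratios with wide intervals.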
